A study of Homo sapiens with 24 samples.

Results

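The data describe 10 genes that the transcription factor NF-kappaB is known to switch on, the chemokine genes CXCL1, CXCL2, CXCL3, CXCL8 and CCL20, the inhibitor genes NFKBIA, TNFAIP3 and BIRC3, the subunit gene RELB and the adhesion gene ICAM1, followed across 2 colorectal cancer cell lines and 4 treatments. The members were taken by symbol from a list of such targets, with earlier results of these data known, and they are 10 of the 37967 genes that the expression tables hold. All 10 had counts. Of these, 9 were read from the count table, in which 19453 of 33113 genes had a count in any sample, and TNFAIP3 was read from a second, longer table, in which 22833 genes did. HCT116 is an established human colorectal carcinoma line, and HCT116 oxpl-R is its oxaliplatin-resistant derivative, raised by repeated pulses of the drug. Both lines carry the TetOn-E1A cassette, so that doxycycline switches on the adenoviral E1A gene in either. Each line was left untreated (control), given 0.5 µg/mL doxycycline (E1A), given 25 µM oxaliplatin for 24 h (oxaliplatin), or given doxycycline 3 h before the same oxaliplatin treatment (E1A + oxaliplatin), with 3 biological replicates per group and 24 samples in all. The groups hold no doxycycline-only culture without E1A, so the effects of the inducer and of E1A cannot be told apart, and each line is a single line, so that a difference between them is a difference between these cell populations. A library held 24838095 to 37927720 counts.

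NF-kappaB dimers rest in the cytoplasm bound to inhibitory IkappaB proteins. Signals from cytokine receptors, pattern-recognition receptors or damaged DNA activate the IkappaB kinase, the inhibitors are degraded, and the freed dimers enter the nucleus and bind short kappaB sites in DNA. The genes they switch on include chemokines that recruit neutrophils and lymphocytes, adhesion molecules, and the inhibitors that shut the pathway off again. In intestinal epithelium and in colorectal tumour cells this pathway is best known for inflammatory chemokine production and for protection from cell death.

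ICAM1 stood out from the other 9 members. Its level was 10.7-fold higher in untreated HCT116 oxpl-R than in untreated HCT116 cells, and oxaliplatin raised it in both lines. NFKBIA rose under oxaliplatin in HCT116 cells. The 5 chemokines stayed at low levels, and none of them was called in any comparison when every gene with a count was tested in edgeR on all 24 samples, though some alternatives called 3 of them between the lines. Induction of E1A changed none of the 10 members past the threshold in edgeR, with 0.432% of all genes called in HCT116 and 0.226% in HCT116 oxpl-R cells.

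Stretches of the members' promoters are shown because a kappaB site near the start is the feature by which such genes are usually known. RefSeq promoters of assembly GRCh38.p14, from 250 bases before to 50 bases after each gene's start, were matched by symbol for 9 of the 10 members. The 9 letters GGAATTTCC, searched on both strands, were found in 6 of these 9 promoters (CXCL1, CXCL2, CXCL3, CXCL8, NFKBIA and ICAM1), and in 0.461% of all 35116 promoters of that length. The longer kappaB consensus, which can overlap those letters, was found in 7 of the 9 (CXCL1, CXCL2, CXCL3, CCL20, NFKBIA, TNFAIP3 and BIRC3) and in 11.3% of all promoters. In the following 50-base stretches, each read 5′ to 3′ on the strand of its gene, capitals mark the 9 letters on that strand, or their reverse complement for NFKBIA and ICAM1.
CXCL1: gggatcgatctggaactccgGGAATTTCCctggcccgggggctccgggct
CXCL2: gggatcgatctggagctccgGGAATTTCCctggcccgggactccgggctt
CXCL8: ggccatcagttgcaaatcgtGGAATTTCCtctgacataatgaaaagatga
NFKBIA: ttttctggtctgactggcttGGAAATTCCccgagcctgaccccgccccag
ICAM1: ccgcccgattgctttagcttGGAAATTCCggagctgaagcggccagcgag

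The stretch of CXCL1 lies at chr4:73869295-73869344 on the plus strand, that of CXCL2 at chr4:74099243-74099292 on the minus strand, and that of CXCL8 at chr4:73740458-73740507 on the plus strand. The stretch of NFKBIA lies at chr14:35404801-35404850 on the minus strand and that of ICAM1 at chr19:10270914-10270963 on the plus strand. The letters began 78 bases before the RefSeq start of CXCL1 and 77 bases before that of CXCL2, while they began 91 bases before CXCL8, 81 bases before NFKBIA and 186 bases before ICAM1. CXCL3 held them 78 bases before its start. The chemokine genes with these letters all lie on chromosome 4 in GENCODE 44 (GRCh38): CXCL8 at 73740519 to 73743716, CXCL1 at 73869393 to 73871308, CXCL3 at 74036589 to 74038807 and CXCL2 at 74097040 to 74099196. A match of letters describes the DNA of the reference and not binding in these cells.

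The labels were checked against genes outside the set. The E1A transgene had 114 to 342 counts in every sample without doxycycline. In HCT116 cells its mean was 143 ± 26.4 normalized counts in controls and 22915 ± 914 with doxycycline (SD, n = 3), and in HCT116 oxpl-R cells it was 219 ± 27.5 and 20029 ± 3774. A normalized count here is the count scaled to a library of average size. In the HCT116 E1A + oxaliplatin group, replicate 1 held 5826 normalized counts of E1A against 15713 and 14447 in the other replicates. That library also held the highest counts of CXCL2, CXCL3 and CCL20 in the series, and its part in those results is given with each of them. Of 7 epithelial markers 6 were in the tables, with a summed level of 5123 to 16323 CPM (counts scaled to the same library total) per sample, led by the keratin gene KRT8. The 6 leukocyte markers summed to 1.06 to 7.02 CPM, led by CD68, the 6 fibroblast markers to 14.3 to 54.1 CPM, led by COL1A1, and the 3 endothelial markers to 0.0587 to 0.912 CPM. MS4A1, DCN and LUM never exceeded 3 counts. The epithelial marker CDX1 was also near absent, with 6 counts at most and 3 or fewer in 23 of the 24 samples.

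Per length of transcript the members spanned a wide range, compared here as normalized counts per kb averaged over the 24 samples. NFKBIA had the highest level with 825 ± 189 (SD over 24 samples), followed by RELB with 232 ± 57.3 and ICAM1 with 196 ± 164. TNFAIP3 with 30.4 ± 6.96 (from the second table), CXCL8 with 28.5 ± 14.5, CXCL1 with 25.7 ± 9.63 and CXCL3 with 23.2 ± 11.2 formed a middle group whose neighbours differed by less than these SDs. CXCL2 with 10.8 ± 7.25 and BIRC3 with 10.8 ± 8.47 were lower, and CCL20 with 3.48 ± 5.33 was lowest. The group means of ICAM1 ranged from 23.1 ± 4.09 in HCT116 controls to 432 ± 15.7 in HCT116 oxpl-R cells with E1A + oxaliplatin (SD, n = 3). Its place in the order therefore depended on the line. In HCT116 controls it lay below TNFAIP3 (34.2), and in HCT116 oxpl-R controls it lay above RELB (247 against 169).

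**Figure D1:**
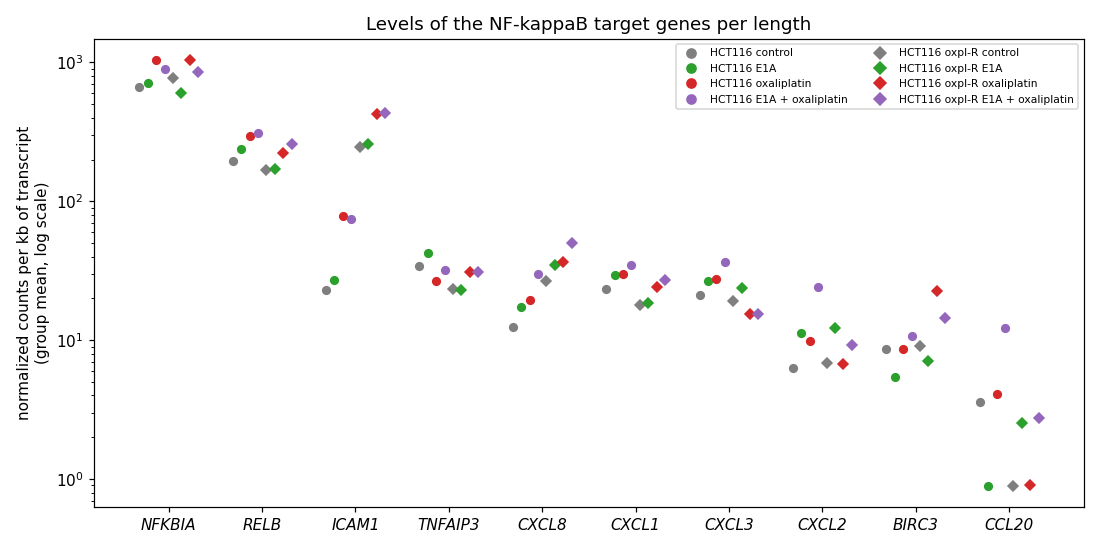
Group means of the 10 genes in normalized counts per kb of transcript (vertical log axis), with genes on the horizontal axis in order of their mean over all samples; circles are the 4 HCT116 groups, diamonds the 4 HCT116 oxpl-R groups, and colours mark the treatment. NFKBIA lies at the top with a mean of 825 and CCL20 at the bottom with 3.48, and ICAM1 is the gene whose circles and diamonds separate fully.

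The members were compared between the lines within each treatment, which asks whether resistance went with a different output of NF-kappaB target genes. A gene was called when its Benjamini-Hochberg adjusted p over all genes tested was under 0.05 in edgeR's quasi-likelihood test across the 24 samples. In untreated cells 1 of the 10 members was called, while 14.1% of all genes in the count table were. Under oxaliplatin it was 1 of 10 against 25.6% of all genes. With E1A it was 2 of 10 against 14.4%, and with E1A + oxaliplatin 1 of 10 against 19.3%. ICAM1 was called in every one of these 4 comparisons. With 10 members these counts are too small to set against the shares of all genes, and no difference from them was tested. Between the untreated lines a stricter filter on low counts and DESeq2 each called 2 members. With E1A + oxaliplatin that filter added CXCL2 and CXCL3, and DESeq2 added CXCL3. The median log2 difference of the 10 members between the untreated lines was -0.03, against 0 for all genes. Here and below, the median and the called share of all genes cover every gene with a count in any sample. They are not matched to the levels of the members or of the listed pathway genes.

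ICAM1 (chr19:10271093-10286615 in GENCODE 44, GRCh38, plus strand, ENSG00000090339.9) encodes the intercellular adhesion molecule that leukocyte integrins bind. In untreated HCT116 cells its 3 samples held 82.2, 59.0 and 64.7 normalized counts, and in untreated HCT116 oxpl-R cells they held 776, 624 and 802. Every resistant sample lay above every parental sample. The log2 difference was 3.42 (SE 0.24, edgeR adjusted p = 3.85e-12), a 10.7-fold higher level in the resistant line. The same direction held in all 3 replicates under each treatment, with log2 differences of 3.25 (SE 0.24) with E1A, 2.44 (SE 0.23) under oxaliplatin and 2.53 (SE 0.23) with E1A + oxaliplatin. ICAM1 passed the threshold in every alternative analysis of these 4 comparisons. The data are from bulk RNA, in which more cells expressing a gene and more RNA per cell cannot be told apart.

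Oxaliplatin raised ICAM1 in both lines. In HCT116 cells the level went from the control values above to 245, 212 and 242 normalized counts, a log2 change of 1.76 (SE 0.23, adjusted p = 3.88e-06). The level in HCT116 oxpl-R cells went to 1349, 1310 and 1131, a log2 change of 0.78 (SE 0.21, adjusted p = 0.0211). Both changes left no overlap between treated and control samples, and this is shown in the plot of normalized counts in every sample. The call in HCT116 oxpl-R cells was not firm, since the adjusted p was 0.0509 when only the 2 groups entered the fit. Without control replicate 1 it was 0.0583, without control replicate 2 it was 0.162, and without oxaliplatin replicates 1 and 2 in turn it was 0.0710 and 0.0619. With the replicate number as a block it was 0.00414.

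The log2 response of ICAM1 to oxaliplatin in HCT116 oxpl-R cells differed from that in HCT116 cells by -0.98 (SE 0.31, adjusted p = 0.0859), which did not pass the threshold. It did pass in 3 of the 20 alternatives, with an adjusted p of 0.0255 after a stricter filter on low counts, 0.0279 with the replicate block and 0.00705 in DESeq2. Ordered by mean, the 8 groups of ICAM1 fell into 4 steps whose samples did not overlap. The lowest step held the HCT116 control (68.6 ± 12.1) and E1A (80.4 ± 24.8) groups, and the next held HCT116 E1A + oxaliplatin (221 ± 47.2) and oxaliplatin (233 ± 18.3). Above them came HCT116 oxpl-R control (734 ± 96.4) and E1A (768.7 ± 135), and then HCT116 oxpl-R oxaliplatin (1263 ± 116) and E1A + oxaliplatin (1283 ± 46.6), all in normalized counts (SD, n = 3). Within a step the 2 groups overlapped.

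**Figure D2:**
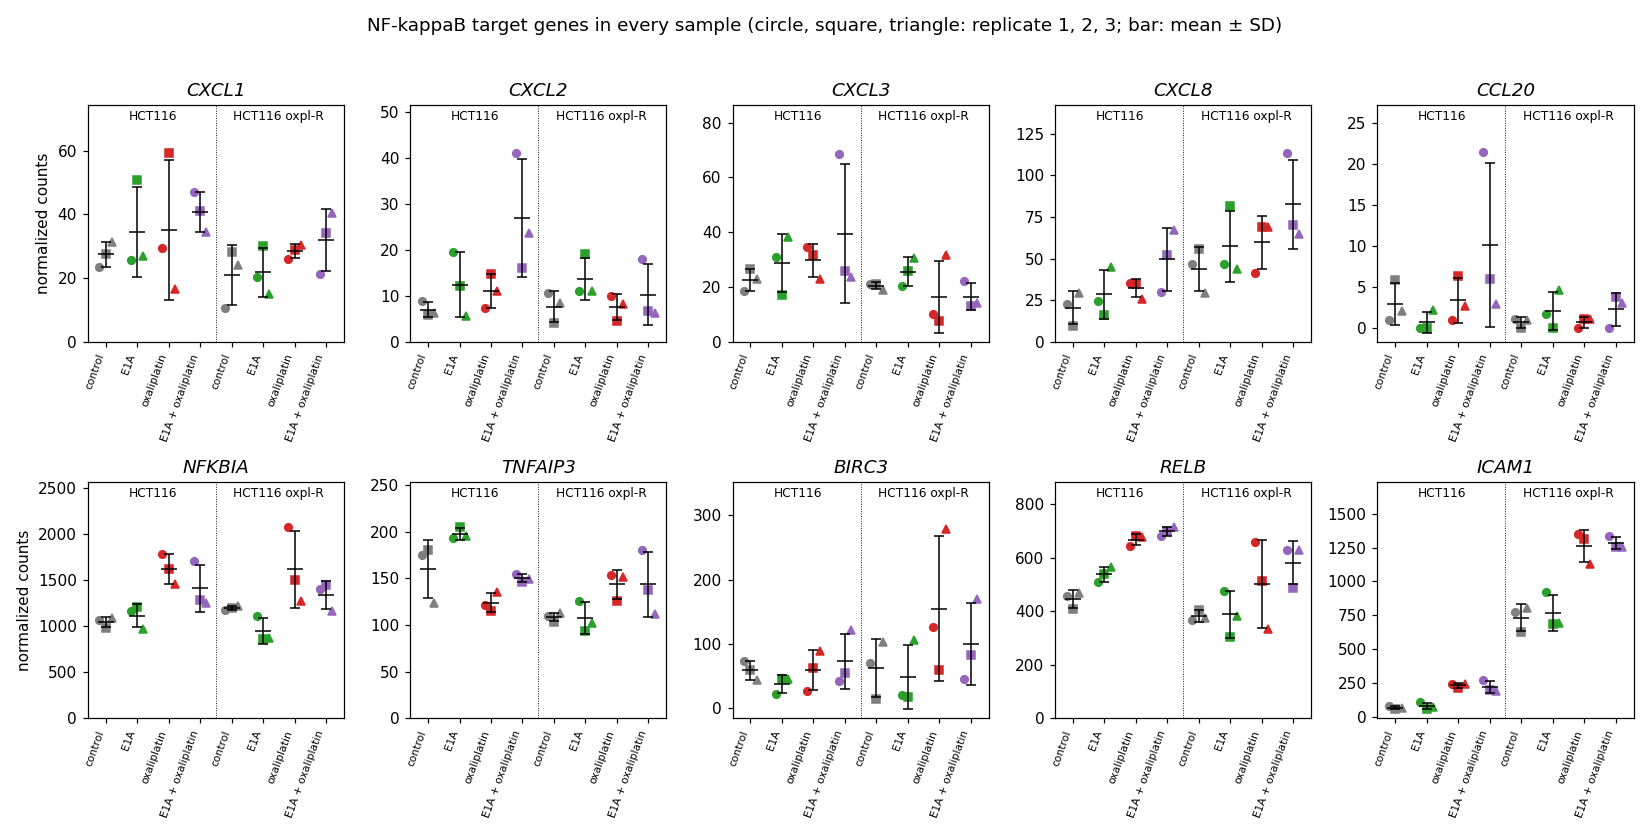
Normalized counts (vertical axes, linear, a scale per gene) of the 10 genes in all 24 samples, by group on the horizontal axis with HCT116 left and HCT116 oxpl-R right of the dotted line; symbols are replicates 1, 2 and 3 (circle, square, triangle) and bars are the mean ± SD of 3 samples. ICAM1 climbs in 4 steps from 68.6 to 1283, while most chemokine groups overlap and BIRC3 spreads widely between replicates.

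The feedback inhibitors came next. In HCT116 cells 2 of the 10 members, ICAM1 and NFKBIA, were called under oxaliplatin, both higher, against 17.4% of all genes called in the count table and 8.75% called higher. RELB was called as well in 9 of 15 alternatives. The single member called in HCT116 oxpl-R cells was ICAM1, against 6.11% of all genes called and 3.10% called higher. The median log2 change of the members was 0.49 in HCT116 and 0.42 in HCT116 oxpl-R cells, against 0 for all genes at any level. Within each line this comparison and that of E1A share their control samples.

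NFKBIA (chr14:35401079-35404749, minus strand) encodes IkappaB-alpha, the inhibitor that NF-kappaB itself re-makes to end a response. In HCT116 controls it held 1067, 978 and 1086 normalized counts, and under oxaliplatin 1783, 1615 and 1461. All treated samples were above all controls, with a log2 change of 0.63 (SE 0.19, adjusted p = 0.0167). The call was lost without control replicate 1 (log2 change 0.65, adjusted p = 0.0525) and without control replicate 2 (0.59, adjusted p = 0.0829). The change itself stayed about as large in these 2 fits. The HCT116 oxpl-R controls held 1180, 1196 and 1221 and the treated samples 2073, 1504 and 1269. These groups did not overlap either, but the log2 difference of 0.43 (SE 0.19) had an adjusted p of 0.212. The responses of the lines differed by -0.20 (SE 0.26, adjusted p = 0.885), which this design could not separate from 0.

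TNFAIP3 (chr6:137867214-137883314, plus strand) encodes A20, an ubiquitin-editing enzyme that dampens signalling to NF-kappaB. With E1A, HCT116 cells held 193, 205 and 195 normalized counts of it and HCT116 oxpl-R cells held 126, 93.5 and 102. All resistant samples were below all parental ones, and the log2 difference was -0.88 (SE 0.25, adjusted p = 0.0174), in a second-table fit where 12.2% of all genes were called. This call was lost without HCT116 E1A replicate 1 or 2 (adjusted p of 0.0526 and 0.0702) and without HCT116 oxpl-R E1A replicate 2 or 3 (0.0969 and 0.0739). Between untreated lines the samples were likewise apart, at 175, 180 and 124 in HCT116 and 110, 103 and 113 in HCT116 oxpl-R cells, with a log2 difference of -0.56 (SE 0.25) and an adjusted p of 0.161, which was 0.0460 after a stricter filter on low counts and 0.0307 in DESeq2. Under oxaliplatin the order of the means was the other way, 124 ± 10.2 in HCT116 and 144 ± 15.6 in HCT116 oxpl-R cells, and the lines overlapped. The change of the line difference with oxaliplatin was 0.77 (SE 0.35, adjusted p = 0.266).

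BIRC3 (chr11:102317484-102339403, plus strand) encodes cIAP2, a ubiquitin ligase that blocks cell death downstream of tumour necrosis factor receptors. Its replicates lay far apart in the resistant line, where the coefficient of variation within a group reached 103%. In HCT116 oxpl-R cells replicate 3 was the highest in each of the 4 groups, at 103 (control), 106 (E1A), 279 (oxaliplatin) and 170 (E1A + oxaliplatin) normalized counts. In oxaliplatin-treated HCT116 oxpl-R cells the samples held 126, 58.9 and 279, and in controls 70.4, 15.1 and 103, so the groups overlapped. The log2 difference of 1.30 (SE 0.62) had an adjusted p of 0.282. Within each replicate number the treated sample was higher, by 1.80-, 3.89- and 2.71-fold. Same-numbered samples of these 2 groups deviated together, and a fit of them with the replicate number as a block gave a log2 change of 1.36 (SE 0.27, adjusted p = 9.34e-05). That fit was added after the data were seen. The block in the fit of all 24 samples, which had been planned, gave 1.25 (SE 0.48, adjusted p = 0.142). Between the lines under oxaliplatin BIRC3 was called in 2 alternatives, the replicate block in a fit of only those groups (adjusted p = 0.0395) and without HCT116 oxpl-R oxaliplatin replicate 2 (0.0491). In HCT116 cells the corresponding ratios of treated to control were 0.371, 1.04 and 2.02, in no common direction.

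RELB (chr19:45001461-45038192, plus strand) encodes the subunit that pairs with p52 in the non-canonical pathway, and its gene is itself a target. In HCT116 controls it held 456, 407 and 470 normalized counts, and under oxaliplatin 643, 680 and 676. The groups did not overlap, yet the log2 difference of 0.58 (SE 0.21) missed the threshold with an adjusted p of 0.0562. It passed in 9 of 15 alternatives, DESeq2 and limma among them, with adjusted p-values from 0.00316 to 0.197 over all alternatives. In HCT116 oxpl-R cells the treated samples held 658, 513 and 333 against 366, 406 and 375 in controls, and overlapped with them (log2 difference 0.39, SE 0.21, adjusted p = 0.391). Between the lines the log2 difference of RELB was -0.22 in untreated cells, -0.47 with E1A, -0.41 under oxaliplatin and -0.26 with E1A + oxaliplatin. None of these passed in edgeR fitted to all 24 samples. The difference under oxaliplatin did pass in DESeq2 (adjusted p = 0.0439), in limma on log2(value + 1) (0.0476) and without HCT116 oxpl-R oxaliplatin replicate 1 (0.0266).

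The chemokines are small secreted proteins. CXCL1, CXCL2, CXCL3 and CXCL8 attract neutrophils through the receptor CXCR2, CXCL8 also through CXCR1, and CCL20 attracts lymphocytes and dendritic cells through CCR6. None of the 5 was called in any of the comparisons by edgeR fitted to all 24 samples with every gene that had a count. CXCL2, CXCL3 and CXCL8 were called between the lines in a few alternatives, edgeR fits among them, which are given with each gene. Their counts were small. CXCL1 ranged from 9 to 56 counts per library, CXCL2 from 4 to 40, CXCL3 from 7 to 67 and CXCL8 from 10 to 132. CCL20 was at 3 counts or fewer in 17 of 24 samples and at 0 in 6, where 3 counts is the level that a count of 0 still allows.

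CXCL8 had the most regular pattern among them. Untreated HCT116 cells held 22.5, 9.83 and 29.2 normalized counts and untreated HCT116 oxpl-R cells held 46.9, 55.5 and 29.5. The lines did not overlap, the 2 nearest samples being almost equal, and the log2 difference of 1.10 (SE 0.43) had an adjusted p of 0.0930. The difference pointed the same way in the other treatments, at 1.00 (SE 0.42) with E1A, 0.89 (SE 0.42) under oxaliplatin and 0.73 (SE 0.40) with E1A + oxaliplatin. No one of them passed in that fit, and the difference with E1A passed in 1 of 15 alternatives, without HCT116 E1A replicate 3 (1.47, adjusted p = 0.0373). The highest CXCL8 level of the series, 113 normalized counts, was in HCT116 oxpl-R cells with E1A + oxaliplatin.

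CXCL1, CXCL2 and CXCL3 are near copies of each other. Of all stretches of 31 bases in their main transcripts, 14.4% of those of CXCL1, 21.7% of CXCL2 and 9.57% of CXCL3 also occur in one of the others, so the counting may have split their reads and their single values are uncertain. With E1A + oxaliplatin, CXCL3 held 68.6, 26.0 and 23.7 normalized counts in HCT116 and 22.3, 13.3 and 14.0 in HCT116 oxpl-R cells. All resistant samples were lower, with a log2 difference of -1.25 (SE 0.49, adjusted p = 0.0723). It passed in 4 of 15 alternatives, with an adjusted p of 0.0369 in DESeq2, 0.0392 after a stricter filter on low counts, 0.0385 without HCT116 E1A + oxaliplatin replicate 2 and 0.0282 without replicate 3 of that group. Without HCT116 E1A + oxaliplatin replicate 1, the library with less E1A than the others of its group, the difference was -0.58 (adjusted p = 0.575). CXCL2 in the same groups held 40.98, 16.0 and 23.7 against 18.02, 6.63 and 6.23, which overlapped (log2 difference -1.37, SE 0.60, adjusted p = 0.112). Without that library it was -0.93 (adjusted p = 0.445), while it passed after that filter (0.0419) and without HCT116 oxpl-R E1A + oxaliplatin replicate 1 (0.0478). Under oxaliplatin alone CXCL3 passed between the lines in 1 alternative, without HCT116 oxpl-R oxaliplatin replicate 3 (log2 difference -1.79, adjusted p = 0.0185). For CXCL1 the log2 difference between the lines ranged from -0.67 to -0.30 over the 4 treatments, and its samples always overlapped.

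CCL20 had its highest count, 21, in that same library, and its other samples held 6 counts at most. Its 12 samples of HCT116 oxpl-R cells held 0 to 5 counts. No fold change is given for it, since its groups lie at or near the level of 3 counts that a count of 0 allows.

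Induction of E1A addressed whether the viral protein, which binds transcriptional coactivators, shifted these genes. In HCT116 cells 0 of 10 members were called and 0 had an unadjusted p under 0.05 in edgeR, while 0.432% of all genes were called. In HCT116 oxpl-R cells it was also 0 and 0, with 0.226% of all genes called. Under oxaliplatin, E1A gave 0 calls in HCT116 cells, with CXCL2 alone at an unadjusted p under 0.05 and 0.0874% of all genes called, and 0 calls in HCT116 oxpl-R cells, with 0 at an unadjusted p under 0.05 and 1.39% of all genes called. DESeq2 and limma also called 0 members in each of these comparisons. Under E1A with oxaliplatin DESeq2 called 0.193% of all genes with an adjusted p in HCT116 and 4.59% in HCT116 oxpl-R cells and limma 0.105% and 1.94%, while without oxaliplatin DESeq2 called 1.61% and 0.942% and limma 0.298% and 0.293%. So few genes of any kind were called that the members' count says little about them.

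For ICAM1 the log2 difference was 0.23 (SE 0.23) in HCT116 and 0.07 (SE 0.21) in HCT116 oxpl-R cells, and under oxaliplatin it was -0.08 (SE 0.22) and 0.02 (SE 0.21). For NFKBIA it was 0.10 (SE 0.19) in HCT116 cells and -0.34 (SE 0.19, adjusted p = 0.952) in HCT116 oxpl-R cells, where all 3 E1A samples (1107, 856 and 871 normalized counts) lay below all 3 controls. CXCL2 went the other way in that comparison, with E1A samples of 11.01, 19.1 and 11.2 above controls of 10.6, 4.04 and 8.43 (log2 difference 0.83, SE 0.62, adjusted p = 0.952). In HCT116 cells the 3 E1A samples lay above the 3 controls for RELB (log2 difference 0.27, SE 0.21, adjusted p = 0.894) and TNFAIP3 (0.31, SE 0.25, adjusted p = 0.911). For TNFAIP3 they did so under oxaliplatin as well (0.28, SE 0.25, adjusted p = 1.0). For CXCL2 under oxaliplatin in HCT116 cells the log2 difference was 1.27 (SE 0.60, adjusted p = 1.0), and 0.79 without the library with less E1A. None of these E1A differences was called. Here and in the paragraphs above, the lying apart of samples was not set against the share of all genes that did so. Without a call it describes the samples and is no sign of a shift. The tests of whether E1A acted differently in the 2 lines, or differently with and without oxaliplatin, called 0 members in edgeR, with 0 at an unadjusted p under 0.05 and 0.0103% to 0.0360% of all genes called. For the response to oxaliplatin between lines 0 members were called against 2.78% of all genes, with TNFAIP3 and ICAM1 at an unadjusted p under 0.05.

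**Figure D3:**
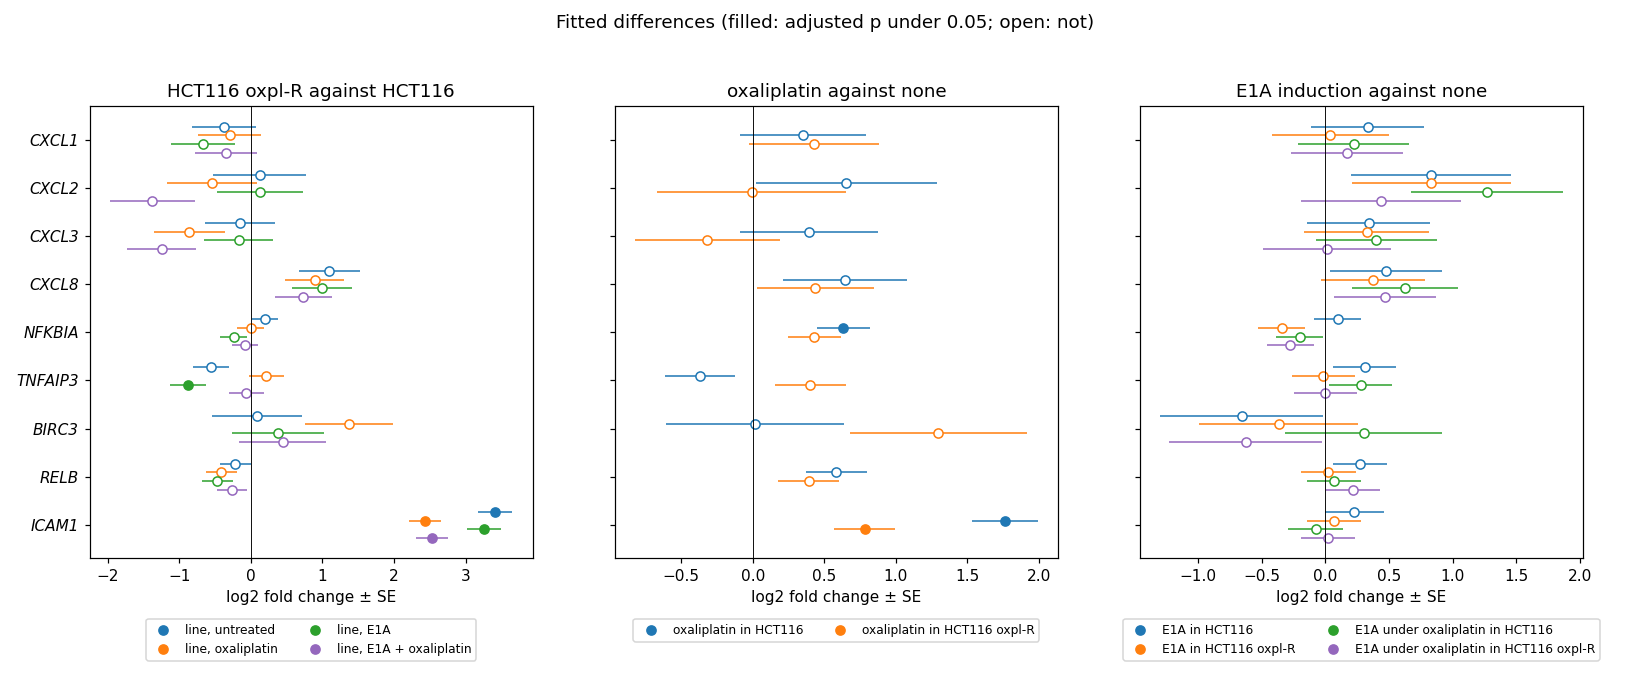
Log2 fold changes (horizontal axes) of 9 of the 10 genes (vertical axis, CCL20 left out for its low counts) with their SE from the fit across 24 samples, for the line comparisons in 4 treatments (left), oxaliplatin in each line (middle) and E1A induction without and with oxaliplatin (right); filled points passed an adjusted p of 0.05 and open points did not. ICAM1 is filled in all 4 line comparisons, between 2.44 and 3.42, and no point is filled for E1A.

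The receptors that would read these signals were at low levels. CXCR2 was at 12 counts or fewer in every sample, CCR6 at 11 or fewer and ACKR1, a decoy receptor for chemokines, at 0. CXCR1 reached 69 counts, with a group mean of 5.23 normalized counts in HCT116 controls and 25.7 under oxaliplatin (log2 change 2.25, SE 0.61, adjusted p = 0.00950, called in 13 of 15 alternatives). In HCT116 oxpl-R cells under oxaliplatin, CXCR1 had a mean of 8.14 without and 49.3 with E1A (log2 change 2.56, SE 0.58, adjusted p = 0.0127, called in 11 of 15). Under oxaliplatin it was called lower in HCT116 oxpl-R than in HCT116 cells (log2 difference -1.62, SE 0.58, adjusted p = 0.0380), a call kept in 6 of 15 alternatives. CXCR1, like the other receptors named here, was singled out after its values were seen. Of the integrin subunits that bind ICAM1, ITGAL reached 23 counts, ITGAM 21 and their shared partner ITGB2 35 in their highest samples. ITGB2 was called higher in HCT116 oxpl-R than in HCT116 cells with E1A + oxaliplatin, at group means of 21.5 and 2.99 normalized counts (adjusted p = 0.0180, called in 9 of 15 alternatives).

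The rest of the pathway was taken from lists of components, other targets, and receptors and adaptors, with the members left out. Between the untreated lines, 1 of 32 components was called higher in HCT116 oxpl-R cells and 6 lower, 7 of 40 other targets higher and 2 lower, and 3 of 21 receptors and adaptors higher and 0 lower. Of all genes 7.19% were called higher and 6.93% lower. The median log2 difference was -0.20 for the components and 0.31 for the other targets, against 0 for all genes.

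NFKB1, which encodes the p105 precursor of the p50 subunit, held 1918, 2048 and 2248 normalized counts in HCT116 controls and 716, 769.2 and 519 in HCT116 oxpl-R controls. The groups were far apart, with a log2 difference of -1.63 (SE 0.22, adjusted p = 1.44e-06). It was lower in the resistant line in all 4 treatments, with log2 differences between -1.63 and -1.21, each past the threshold. NFKBIE, the gene of the inhibitor IkappaB-epsilon, was also lower in HCT116 oxpl-R controls (-0.90, SE 0.20, adjusted p = 0.00216). So were the kinase gene MAP3K7 (-0.94), which encodes TAK1, its partner TAB1 (-0.92) and the early response gene IER3 (-0.90).

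LCN2, the gene of the iron-binding secreted protein lipocalin, went the other way. Its samples held 5.87, 9.83 and 18.8 normalized counts in HCT116 controls and 1709, 1649 and 2248 in HCT116 oxpl-R controls, a log2 difference of 7.34 (SE 0.37, adjusted p = 2.72e-15). CSF2, the gene of the cytokine GM-CSF, rose from 3.92, 8.85 and 3.13 to 65.7, 82.8 and 93.7 (log2 difference 3.89, SE 0.50, adjusted p = 9.42e-07). TNFRSF1B (1.33), a receptor for tumour necrosis factor, PTGS2 (0.92), which encodes the cyclooxygenase COX-2, and GADD45B (0.91), a stress response gene, were also higher. PTGS2 kept its call in 9 of 15 alternatives and TNFRSF1B in 12 of 14. ICAM1 thus lay among a mixed group, in which some known targets were higher and some lower in the resistant line.

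Between the lines under oxaliplatin, 5 of 32 components were called higher in HCT116 oxpl-R cells and 8 lower, 8 of 40 other targets higher and 4 lower, and 1 of 21 receptors and adaptors in each direction, against 13.7% of all genes called higher and 12.0% lower. TBK1, the gene of a kinase that acts beside the IkappaB kinases, held 346, 389 and 688 normalized counts in treated HCT116 cells and 1449, 1826 and 1779 in treated HCT116 oxpl-R cells. The groups were far apart (log2 difference 1.83, SE 0.29, adjusted p = 1.62e-05, second table). Among the other list genes called higher in the resistant line, those with the largest differences at 1 CPM or more were LCN2 (8.11), CSF2 (3.49), PTGS2 (1.55) and IL1RAP (1.26), which encodes a subunit of the interleukin 1 receptor. NFKBIE (-1.36), NFKB1 (-1.35), the chemokine gene CXCL16 (-1.32), TAB1 (-1.04) and NFKBIB (-0.99), the gene of the inhibitor IkappaB-beta, were lower.

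With E1A, 1 of 32 components was called higher in HCT116 oxpl-R cells and 6 lower, 4 of 40 other targets higher and 2 lower, and 0 of 21 receptors and adaptors, against 6.69% of all genes higher and 7.75% lower. TRAF1, an adaptor gene of tumour necrosis factor receptors, was higher (log2 difference 1.68, SE 0.34, adjusted p = 0.00104), as were LCN2 (7.64), CSF2 and LIF (0.47). NFKB1 (-1.49), REL (-1.28), IER3 (-1.05), NFKBIE (-1.04) and CXCL16 (-0.91) were lower. LIF kept its call in 7 of 15 alternatives and REL in 10 of 15. With E1A + oxaliplatin, 4 of 32 components were called higher and 7 lower, 7 of 40 other targets higher and 2 lower, and 3 of 21 receptors and adaptors higher and 0 lower, against 10.3% of all genes higher and 8.92% lower. LCN2 (7.45), CSF2 (3.86), TBK1 (1.59), IL1RAP (1.40) and TLR5 (1.33), the flagellin receptor gene, were higher, TLR5 in 7 of 14 alternatives. NFKBIE (-1.35), NFKB1 (-1.21), NFKBIB (-1.005), NFKB2 (-0.97), which encodes the p100 precursor of the p52 subunit, and TAB1 (-0.94) were lower. In each of these comparisons the genes named are the up to 5 in each direction that had the largest differences at 1 CPM or more.

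Under oxaliplatin in HCT116 cells 5 of 32 components were called higher and 5 lower, 9 of 40 other targets higher and 1 lower, and 5 of 21 receptors and adaptors higher and 1 lower, against 8.75% of all genes called higher and 8.61% lower. PLAU, the gene of urokinase, went from 501, 503 and 619 to 1525, 1605 and 1339 normalized counts (log2 change 1.46, SE 0.19, adjusted p = 4.03e-06), with no overlap. NFKBIE rose with NFKBIA, from 752, 805 and 1008 to 1957, 1837 and 1658 (log2 change 1.09, SE 0.20, adjusted p = 0.000369). TNFRSF1B (1.14), TNFRSF12A (1.11), the receptor of the cytokine TWEAK, and CSF1 (1.05), the macrophage growth factor gene, rose as well. The subunit gene REL (-1.36), the kinase gene CHUK (-1.24), IL1R1 (-0.85), which encodes a receptor for interleukin 1, MAP3K7 (-0.79) and the adaptor gene TRAF3 (-0.75) fell. Several of these calls were not firm. MAP3K7 kept its call in 6 of 15 alternatives, CHUK in 9 of 15, IL1R1 in 11 of 15, REL in 14 of 15, TRAF3 in 11 of 14 and TNFRSF1B in 9 of 14.

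Fewer pathway genes were called for oxaliplatin in HCT116 oxpl-R cells, with 1 of 32 components and 5 of 40 other targets called higher, 0 lower, and 0 of 21 receptors and adaptors called, against 3.10% of all genes called higher and 3.01% lower. LIF, the gene of a cytokine of the interleukin 6 family, went from 2717, 3318 and 2945 to 5708, 5762 and 5412 normalized counts (log2 change 0.91, SE 0.16, adjusted p = 0.000229). CSF1 (0.85), the adhesion gene ICAM5 (0.83), CFLAR (0.80), which encodes the caspase-8 inhibitor c-FLIP, and IKBKB (0.80), the gene of the IkappaB kinase beta, also rose. Of 15 alternatives CSF1 kept its call in 8, ICAM5 in 11, and CFLAR and IKBKB in 10 each. The difference between the lines in the number of genes called was not itself tested.

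**Figure D4:**
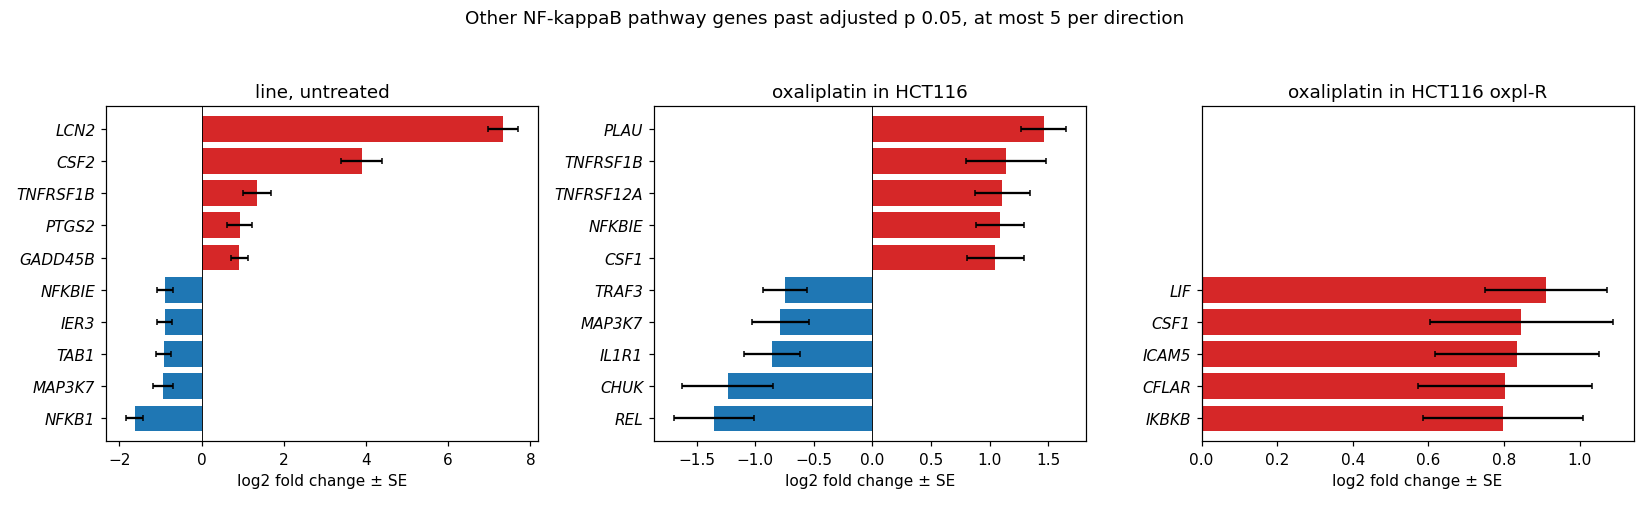
Log2 fold changes (horizontal axes) with SE of the pathway genes outside the 10 members (vertical axes) that passed an adjusted p of 0.05, at most 5 in each direction, for HCT116 oxpl-R against HCT116 in untreated cells (left) and for oxaliplatin in HCT116 (middle) and HCT116 oxpl-R cells (right); red is higher and blue lower. LCN2 at 7.34 and NFKB1 at -1.63 are the extremes of the left panel, and the right panel holds 5 genes, all higher.

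E1A under oxaliplatin in HCT116 cells changed 1 gene of the lists other than receptors. GADD45B held 912, 970 and 604 normalized counts with oxaliplatin alone and 1761, 2405 and 2373 with E1A, a log2 change of 1.40 (SE 0.21, adjusted p = 0.000755), in a comparison where 0.0874% of all genes were called. Of 15 alternatives it missed the threshold in the 2 that fitted just those 2 groups, with adjusted p-values of 0.242 without and 1.0 with a replicate block. Without oxaliplatin, edgeR called 0 of the 92 tested list genes for E1A in either line, with 13 in HCT116 and 11 in HCT116 oxpl-R cells at an unadjusted p under 0.05, as were 1215 and 970 of all 19453 genes of the count table. Past the adjusted threshold were 0.432% and 0.226% of all genes. DESeq2, which gave 69 of them an adjusted p in HCT116 cells, called 3 there, CSF1, GADD45B and PTGS2, of which limma called GADD45B, and both tools called LIF in HCT116 oxpl-R cells. Over all genes DESeq2 called 1.61% in HCT116 and 0.942% in HCT116 oxpl-R cells, and limma 0.298% and 0.293%.

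The genes whose group means followed the members most closely were sought among 2368 genes with at least 1 CPM and a spread of at least 0.5 on the log2 scale. The members' pattern was the mean standardized level of the 7 members with at least 1 CPM, over 8 group means. RNF19B (Pearson r = 0.963), ACHE (0.961), CRACR2B (0.949), EMX1 (0.944) and CDIP1 (0.942) were closest. RNF19B, for example, had mean normalized counts of 1119 and 2016 in HCT116 controls and oxaliplatin-treated cells and 970 and 2457 in HCT116 oxpl-R cells. The 3 genes most like CXCL8 were EID2B (0.995), HSD17B1 (0.973) and GOLGA4-AS1 (0.968). These values describe 8 points that share libraries, and the genes were picked as the highest of many.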

How the data were processed

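Poly(A) RNA-seq libraries of 24 cultures (8 groups, 3 biological replicates each) were analysed. The authors trimmed reads with Trimmomatic, quantified them with Salmon 1.6.0 on GRCh38 with GENCODE 47 and summed transcripts to genes with tximport. They deposited 2 tables of estimated counts. The first sums to 24838095 to 37927720 per sample. Between 15.9% and 30.4% of its values per sample were not whole numbers, and they were rounded before testing. The second is deposited under the name TPM, but its values sum to 28004261 to 42613322 per sample, so they were treated as length-scaled estimated counts and rounded. Both tables end part of the way through the gene list, and genes after the end of the first, TNFAIP3 among them, were read from the second. Levels set across the tables were normalized separately.

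Genes with a count in any sample were tested with edgeR 4.0.16 in R 4.3.3 (TMM normalization, quasi-likelihood fit of 8 groups over 24 samples, Benjamini-Hochberg adjustment over all genes of the table, threshold 0.05). The steps were tested on simulated data, in which genes at 1 CPM or more were changed in the oxaliplatin-treated HCT116 group. Of changes of 1.5-fold 14.9% were called, of 2-fold 55.2% and of 4-fold 92.4%. Changes of 1.5-fold were thus mostly missed there. Alternatives were DESeq2 1.42.0, limma 3.58.1 on second-table values after log2 transformation with a pseudocount of 1 or 0.1, RLE size factors, filterByExpr, fits of only the groups compared, the replicate number as a block, the second table, and each sample left out in turn. Named genes are the 10 members and, in each comparison, up to 5 called pathway genes per direction with a mean of at least 1 CPM. Receptors of the chemokines and of ICAM1 are named outside this rule, after their values were seen. The members and lists were chosen with earlier results of these data known. Positions came from GENCODE 44 (GRCh38).

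The labels number the biological replicates without saying what a number shares. In HCT116 oxpl-R control and oxaliplatin groups, same-numbered samples deviated together (Pearson r over 11090 genes of 0.104, 0.294 and 0.385), which the other comparisons did not show for all 3 numbers. The depth limits the precision of the chemokines, which held few counts, and SDs cover the spread between cultures of one line.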

Additional observations from a re-analysis of the deposited data

Results flagged for a closer look

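TNFRSF12A, the receptor of the cytokine TWEAK, responded to oxaliplatin differently in the 2 lines by the test of that difference, with a log2 difference of responses of -1.26 (SE 0.32, edgeR adjusted p = 0.0247). In HCT116 cells its samples held 4526, 4678 and 5801 normalized counts in controls and 13147, 9563 and 9662 under oxaliplatin (log2 change 1.11, SE 0.23, adjusted p = 0.00130). In HCT116 oxpl-R cells they held 6793, 9588 and 7698 in controls and 3979, 10296 and 7389 under oxaliplatin (log2 difference -0.15, SE 0.23, adjusted p = 0.864). All treated HCT116 samples lay above their controls, while the groups of the resistant line overlapped. The difference passed the threshold in 14 of 19 alternatives. The adjusted p was 0.0575 when only the groups compared were fitted. It was 0.0785 without HCT116 control replicate 1, 0.0763 without HCT116 control replicate 2, 0.0790 without HCT116 oxaliplatin replicate 1 and 0.0794 without HCT116 oxpl-R control replicate 2.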

How the results depend on the processing

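Counts of members called were compared under every alternative. Of 2272 alternative values for the 140 log2 differences of single members, 2233 stayed on their side of the threshold, 11 lost a call, 28 gained one and 0 reversed a call. Among the 2153 alternative values of results that were not called, 192 changed sign and were not called either. The untreated lines gave 2 members called, not 1, with filterByExpr and with DESeq2, which added TNFAIP3. The lines under oxaliplatin gave 2 with limma on log2(value + 1), with DESeq2 and with the replicate block in a fit of only the groups compared, and the lines with E1A + oxaliplatin gave 3 with filterByExpr and 2 with DESeq2. Oxaliplatin in HCT116 cells gave 3 members, not 2, with RELB added, under RLE, filterByExpr, the replicate block, only the groups compared, the second table, both limma fits and DESeq2. Oxaliplatin in HCT116 oxpl-R cells gave 0 when only the groups compared were fitted and 2 when the replicate block was added to that fit. The difference of responses to oxaliplatin between lines gave 1, ICAM1, with filterByExpr, with the replicate block and with DESeq2. Over all 14 comparisons the replicate block in the fit of 24 samples gave 10 calls against 8 without it, and filterByExpr and DESeq2 gave 13 each. The cause of these shifts was not tested. With each sample left out in turn, the count ranged from 1 to 2 for the lines under oxaliplatin and with E1A + oxaliplatin, from 1 to 3 for the lines with E1A and for oxaliplatin in HCT116 cells, and from 0 to 1 for oxaliplatin in HCT116 oxpl-R cells. The named pathway genes kept their direction in all 833 alternative values and lost their call in 84. Low counts limit the chemokines, and these data show RNA levels, not protein, binding or secretion.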
